A study of Sus scrofa with 20 samples.

Results

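The slow-twitch contractile and calcium proteins described here are the products of 10 genes, MYH7, MYL2, MYL3, TNNC1, TNNI1, TNNT1, TPM3, ATP2A2, CASQ2 and MYBPC1, measured in the longissimus muscle of 2 pig breeds. Their probe sets were taken by name, as all those with one of these genes as their only symbol in the array annotation. This gave 21 of the 45922 porcine probe sets tested, and 10 of 13609 named genes. Expression was measured once per animal on the Affymetrix Porcine Snowball array, from total RNA of the longissimus dorsi of adult pigs. The groups were 10 Duroc and 10 PiNN, which are Pietrain pigs homozygous negative for malignant hyperthermia syndrome and so without the RYR1 mutation that causes it. All were untreated, and the RYR1 genotype of the Duroc and the sex of the animals are not in the labels. The labels give the tissue as taken 24 h before slaughter, while the study describes muscle sampled after slaughter for its methylation libraries, so the time of sampling is uncertain here. Signals of probe sets are given in log2 units, so a difference of 1 is a doubling.

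Slow-twitch fibres contract slowly and resist fatigue, and each part of their contractile apparatus has its own isoform. MYH7 is the slow myosin heavy chain that hydrolyses ATP and moves along actin, and MYL2 and MYL3 are the regulatory and essential light chains bound to its neck. Calcium binds troponin C (TNNC1), which acts through the inhibitory subunit TNNI1 and the tropomyosin-binding subunit TNNT1 to shift tropomyosin (TPM3) on the thin filament. ATP2A2 is the calcium pump that refills the sarcoplasmic reticulum, CASQ2 stores calcium inside it, and MYBPC1 is a myosin-binding protein of the thick filament. Most of these proteins are also made in heart, whereas the longissimus is a muscle of mainly fast fibres. The same muscle piece holds slow and fast fibres, so fewer slow fibres and less slow-fibre RNA per fibre cannot be told apart in these values.

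A pair of PiNN animals stood apart in these genes. PiNN 35 and PiNN 49 had the lowest signals of all 20 animals for 7 of the 10 genes, MYH7, MYL2, TNNC1, TNNI1, TNNT1, TPM3 and ATP2A2, each read at its brightest probe set. They were also the lowest 2 PiNN animals for MYL3 and CASQ2, and only for MYBPC1 was another PiNN animal below PiNN 49. Averaged over the 10 genes, the deviation from the mean of the 20 animals was -1.32 in PiNN 35 and -0.97 in PiNN 49. From the PiNN median, TPM3 deviated by -2.04 in PiNN 35, and TNNI1 by -1.93 in PiNN 35 and -1.90 in PiNN 49. Over 12 fast counterparts the mean deviation was 0.08 in PiNN 35 and -0.18 in PiNN 49. The background probe sets of the array averaged 3.93 over all arrays, 3.96 on that of PiNN 35 and 4.21 on that of PiNN 49, the highest of the 20. The part of the array background in these low signals was not tested. The spread in PiNN, the breed differences and the covariation below are given with and without these 2 animals.

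**Figure D1:**
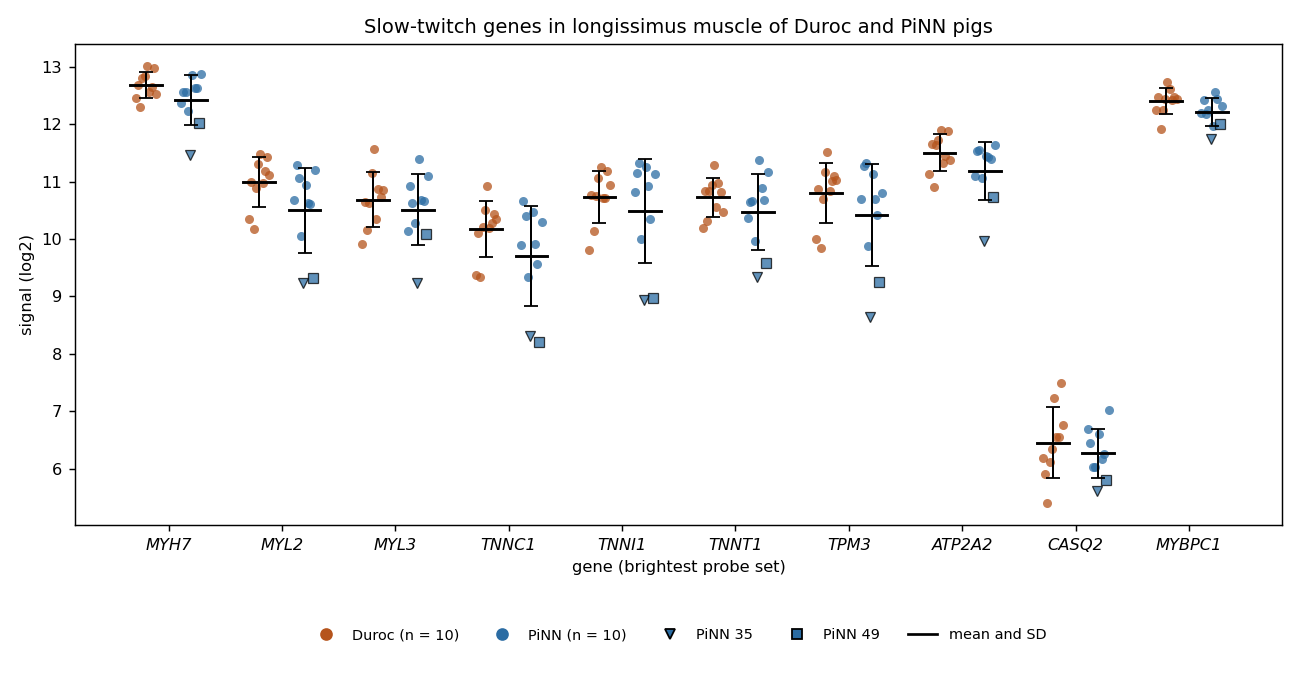
Log2 signals of the brightest probe set of each slow-twitch gene in 10 Duroc and 10 PiNN animals, 1 point per animal, with the mean and SD of each breed. PiNN 35 (triangle) and PiNN 49 (square) lie below the other 18 animals for 7 of the 10 genes, while the rest of the PiNN points overlap those of Duroc.

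MYH7 had 2 probe sets. At the brighter, SNOWBALL_001485_st, signals ran from 12.29 over a median of 12.66 to 13.01 in Duroc, and from 11.45 over a median of 12.56 to 12.88 in PiNN. Its second probe set, SNOWBALL_010241_st, followed the first closely, with a Pearson correlation of 0.990 over the Duroc and 0.987 over the PiNN animals. The breeds overlapped at both, and 6 of the 10 Duroc animals were above the PiNN median at the first and 7 at the second.

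The light chains varied more between animals than the heavy chain did. MYL2 ran from 10.17 over 11.05 to 11.47 (lowest, median, highest) in Duroc and from 9.23 over 10.65 to 11.29 in PiNN, with 8 Duroc animals above the PiNN median. MYL3 ran from 9.91 over 10.68 to 11.57 in Duroc and from 9.23 over 10.64 to 11.39 in PiNN. The highest and the lowest PiNN animal differed 4.18-fold in MYL2 and 4.48-fold in MYL3, against 2.69-fold in MYH7, and without PiNN 35 and 49 by 2.36-fold, 2.39-fold and 1.57-fold. For both light chains the Duroc range lay mostly inside that of PiNN.

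Of the thin filament genes, all 3 troponins and tropomyosin had their lowest values in PiNN 35 or PiNN 49. TNNC1 ran from 9.33 over 10.25 to 10.93 in Duroc and from 8.20 over 9.90 to 10.66 in PiNN. TNNI1 ran from 9.81 over 10.76 to 11.24 in Duroc and from 8.94 over 10.87 to 11.32 in PiNN, so that its PiNN median and highest value were above those of Duroc although its PiNN mean was lower. TNNT1 ran from 10.19 over 10.82 to 11.30 in Duroc and from 9.34 over 10.66 to 11.38 in PiNN. TPM3, at SNOWBALL_005824_st, ran from 9.84 over 10.94 to 11.51 in Duroc and from 8.65 over 10.69 to 11.33 in PiNN, a 6.39-fold range in PiNN and the widest there of the 10 genes, also without PiNN 35 and 49 (2.72-fold). A probe set of TPM3 (SNOWBALL_011620_st, mean 3.02) and one of TNNC1 (SNOWBALL_039205_s_st, mean 2.46) were dimmer than the average background probe set. No level of these genes could be read from them, and the other 19 member probe sets were above it.

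The calcium pump ATP2A2 had 3 probe sets, of which SNOWBALL_016526_st ran from 10.91 over 11.54 to 11.89 in Duroc and from 9.97 over 11.41 to 11.63 in PiNN. CASQ2 ran from 5.40 over 6.45 to 7.49 in Duroc and from 5.61 over 6.22 to 7.03 in PiNN. It was the only one of the 10 genes whose SD was larger in Duroc (0.61) than in PiNN (0.43), and its lowest value was that of Duroc 31. MYBPC1 had the smallest SD of the 10 genes in each breed and ran from 11.91 over 12.44 to 12.73 in Duroc and from 11.74 over 12.22 to 12.57 in PiNN, and 9 of the 10 Duroc animals were above its PiNN median.

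The spread of most members was wide for this array, and in PiNN much of it came from PiNN 35 and 49. The SD among PiNN animals was 0.90 for TNNI1, 0.89 for TPM3 and 0.87 for TNNC1. These were larger than those of 99.6%, 99.5% and 99.5% of the tested probe sets above background. The SDs of these genes in Duroc were 0.45, 0.52 and 0.49, and among the 8 other PiNN animals 0.47, 0.48 and 0.47. The last were larger than those of 93.3%, 93.7% and 93.2% of all tested probe sets, bright and dim. The shares with and without PiNN 35 and 49 thus have different bases. With all animals the SD was larger in PiNN for 9 of the 10 genes, and without these 2 animals for 2 of the 10. That of MYBPC1 was 0.22 in Duroc and 0.25 in PiNN, close to the medians of 0.24 and 0.25 over all tested probe sets. Where a gene had several probe sets above background, they moved together between animals. Over 11 such pairs the median correlation was 0.915 in Duroc (0.755 to 0.990) and 0.931 in PiNN (0.864 to 0.994). Probe sets of one gene share its transcripts and are not independent.

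The first question was whether the breeds differed in these genes. Mean signals of all 10 genes were higher in Duroc, by 0.17 to 0.49, but no member passed the test. MYL2 averaged 10.99 ± 0.43 in Duroc against 10.50 ± 0.74 in PiNN (both SD, n = 10). The difference was 0.49, or 1.40-fold, with a 95% confidence interval from -0.01 to 0.99 (adjusted p = 0.307 from limma). TNNC1 differed by 0.47 (-0.11 to 1.05, adjusted p = 0.431), TPM3 by 0.39 (-0.21 to 0.99, adjusted p = 0.548) and ATP2A2 by 0.31 (-0.05 to 0.68, adjusted p = 0.379). MYH7 averaged 12.68 ± 0.23 in Duroc against 12.42 ± 0.43 in PiNN (both SD, n = 10), a difference of 0.26 (-0.04 to 0.56, adjusted p = 0.385). For TNNT1 (0.25), TNNI1 (0.25), MYBPC1 (0.19), CASQ2 (0.19) and MYL3 (0.17) the adjusted p was 0.381 or more. These intervals reach above 0.4 for every gene, so breed differences of that size in favour of Duroc are not excluded for any of them.

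Over all 21 probe sets 0 were called at an adjusted p under 0.05 with limma and 0 with the ordinary ANOVA of the methods, and 0 had an unadjusted p under 0.05. Among all tested probe sets 4.17% were called, 2.76% with the higher signal in Duroc and 1.41% with the higher signal in PiNN, and 17.3% had an unadjusted p under 0.05. Duroc had the higher mean at 19 of the 21, and at 45.1% of all tested probe sets. The remaining 2 were those below background. The breeds overlapped at every member probe set, and failed to overlap at 0.122% of all tested ones. The median difference over the 10 genes was 0.26, beside -0.02 over all tested probe sets.

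This median rested to a large extent on a few animals. It was 0.14 without PiNN 35 and 0.07 without PiNN 35 and PiNN 49, when the means of MYL3 and TNNI1 were higher in PiNN (differences of -0.04 and -0.14). The median was 0.67 among the 4 Duroc and 3 PiNN animals of these arrays that also had a methylation library in the study. It was 0.07 among the other 13 animals. The animals with a library included PiNN 49 and the Duroc with the highest mean deviations in these genes, Duroc 42, 58 and 38. With the background of each array as a covariate the median was 0.14.

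**Figure D2:**
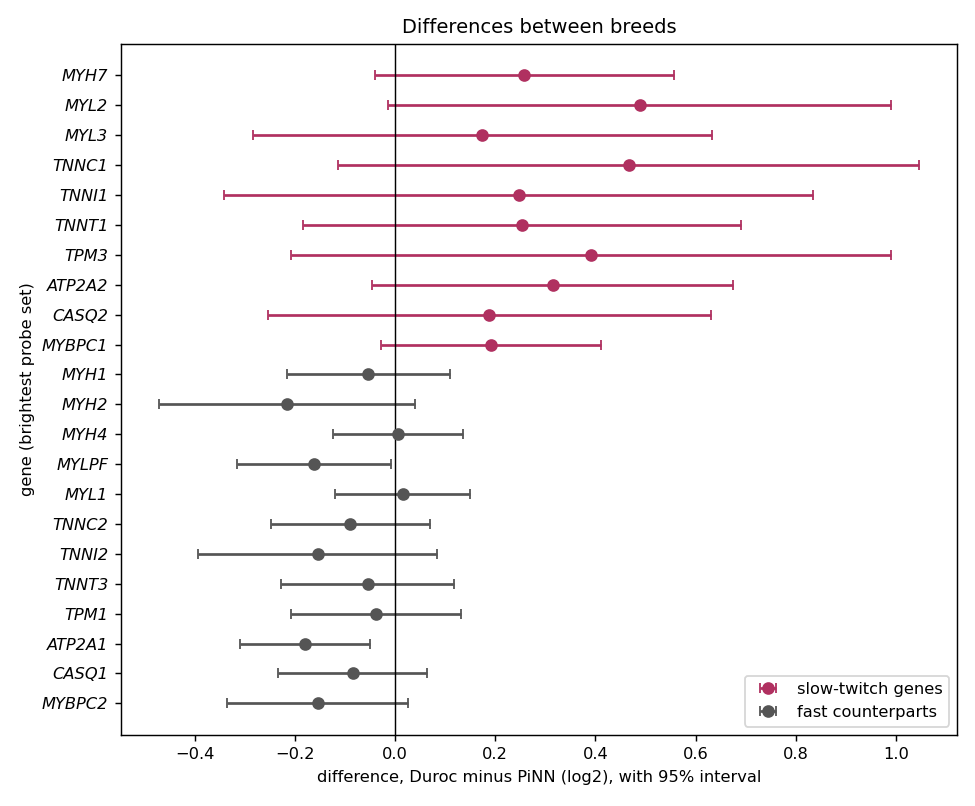
Difference between breeds (Duroc minus PiNN, log2, horizontal axis) with its 95% confidence interval from limma for the brightest probe set of each slow-twitch gene and of each fast counterpart. All 10 slow-twitch means lie to the right of 0 with intervals that include it, and 10 of the 12 fast counterparts lie to the left.

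The second question was whether these genes varied together between animals of one breed. They did, for most of the contractile genes and the calcium pump. Each probe set was fitted on the signal of the brightest MYH7 probe set with breed as a further term, so that the slope is the log2 change of the gene per log2 unit of MYH7 inside the breeds. ATP2A2 had a slope of 1.19 (standard error 0.11, adjusted p = 2.78e-06 from limma) and TNNT1 one of 1.43 (standard error 0.14, adjusted p = 6.73e-06). MYL3 followed at 1.42 (standard error 0.18, adjusted p = 0.000319) and MYL2 at 1.54 (standard error 0.20, adjusted p = 0.000446). The steepest were TPM3 at 1.83 (standard error 0.24, adjusted p = 0.000498), TNNI1 at 1.79 (standard error 0.24, adjusted p = 0.000634) and TNNC1 at 1.74 (standard error 0.24, adjusted p = 0.00112). A slope of 1.83 is a 3.55-fold change of TPM3 for each doubling of MYH7 on this scale. CASQ2 had a slope of 1.04 (standard error 0.25) and MYBPC1 one of 0.43 (standard error 0.14), and neither passed (adjusted p = 0.266 and 0.506). The highest signal on an array was 13.99 to 14.37, and MYH7 reached 13.01, and whether the array responds less steeply near the top of its scale was not tested.

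With MYH7 as the reference, few probe sets outside the members had a called slope. A positive slope on MYH7 was called for 27 of 45920 probe sets, or 0.0588%, and a negative one for 2, or 0.00436%. The 27 held 13 of the 19 member probe sets that are not of MYH7. These were 3 each of ATP2A2 and TPM3, 2 each of TNNT1 and TNNI1, and those of MYL3, MYL2 and TNNC1. Slopes were positive at all 19, and at 48.2% of all tested probe sets. A positive slope with an unadjusted p under 0.05 was found for 17 of the 19, all but those below background, and for 3.83% of all tested. Ranked by p-value, 8 of the first 9 probe sets were members, and the first was SNOWBALL_001483_st, which has no gene symbol (slope 1.09, adjusted p = 1.62e-06). The count depended on the reference gene, as 423 probe sets in all, 14 of them members, had a called positive slope on TNNI1 and 885, 17 of them members, on MYL2.

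A difference between the breeds in these slopes was not found. The interaction of breed and MYH7 was called for 0 of the 19 probe sets by limma, and for 0% of all tested ones. Its unadjusted p was under 0.05 for 2 of the 19, a probe set of CASQ2 and the TPM3 probe set below background, and for 4.15% of all tested ones. In Duroc the slopes of the 9 genes ran from 0.64 to 1.88 and in PiNN from 0.37 to 1.85. Fitted in a single breed, 0 probe sets in all had a called positive slope in Duroc, and 6 in PiNN, of which 4 were members (ATP2A2, MYL3 and TNNT1 by gene).

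Many of these calls needed the low values of PiNN 35 and PiNN 49, whereas the positive direction did not. The counts here are of called positive slopes. Without PiNN 35 the number of called member probe sets was 9 of 16 called in all, and TPM3 had an adjusted p of 0.0519 at its brightest probe set. Without both animals it was 3 of 4, and ATP2A2 and TNNT1 were the genes that still passed. A negative slope was then called for SNOWBALL_045018_st, which has no gene symbol (-1.63, adjusted p = 0.0178 from limma). With all animals that slope was -0.55 and was not called (adjusted p = 0.576). The slopes of the 9 genes then ran from 0.34 to 1.62, and were all positive. Of the 14 probe sets outside the members, all still had positive slopes (0.72 to 1.62) and 1 was still called, SNOWBALL_001483_st. With the array background as a covariate 12 member probe sets were called among 26, and with quantile normalization 10 among 21.

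**Figure D3:**
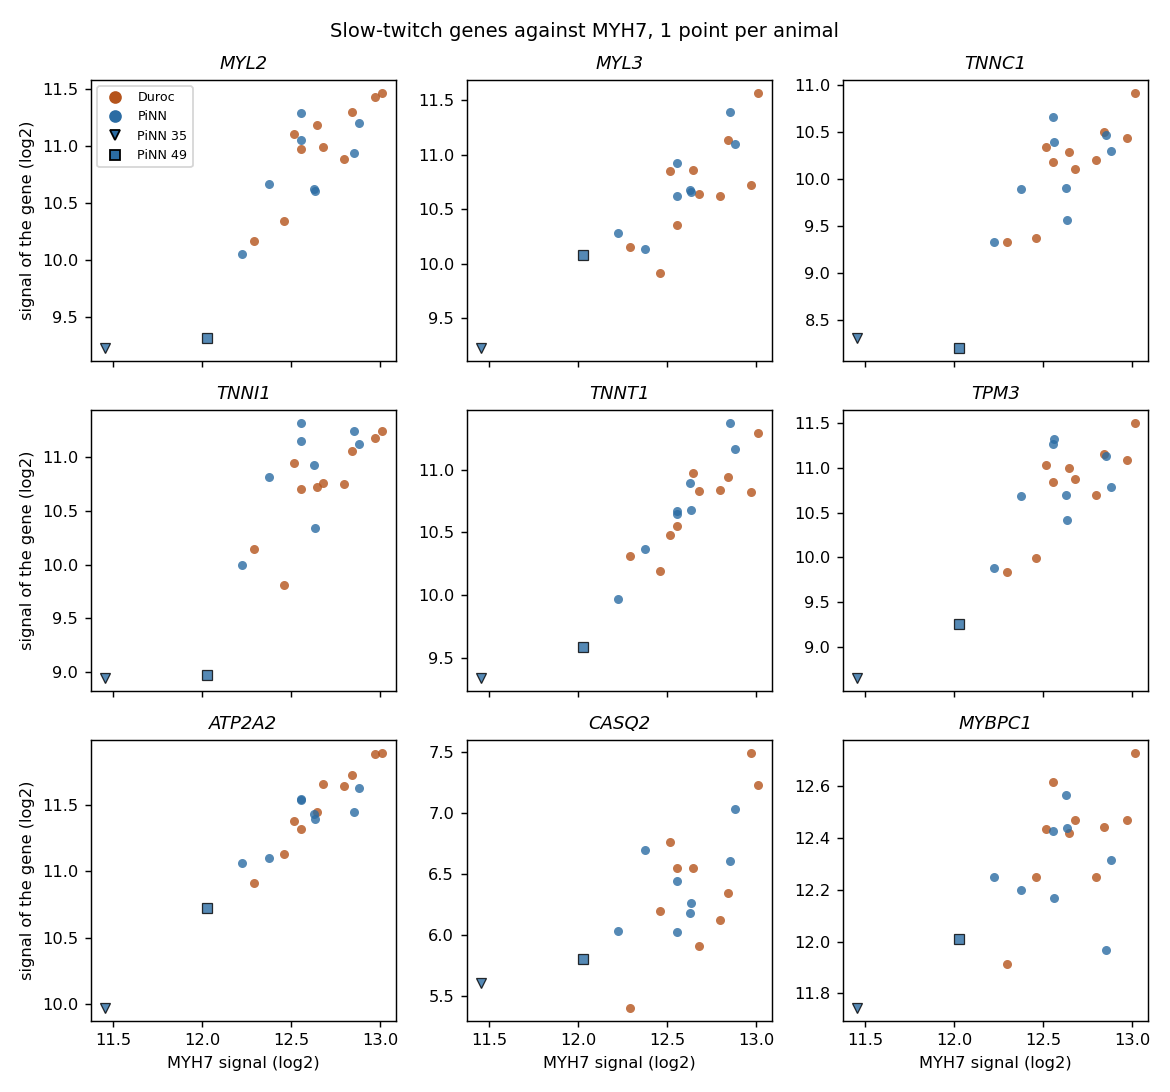
Log2 signal of 9 slow-twitch genes (vertical axes) against that of MYH7 (horizontal axis), 1 point per animal and brightest probe sets throughout. Points of both breeds rise together with PiNN 35 and PiNN 49 at the lower left, tightly for ATP2A2 and TNNT1 and loosely for CASQ2 and MYBPC1.

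Within each breed taken alone, correlations with MYH7 were positive for all 9 genes. In Duroc, Pearson's r was 0.974 for ATP2A2 (permutation p = 1e-05, the smallest these permutations can give, adjusted p = 9e-05, Spearman's rho 0.976 with p = 1e-05). It was 0.858 for TNNT1, 0.851 for MYL2, 0.845 for TNNC1, 0.813 for TNNI1, 0.809 for TPM3 and 0.765 for MYL3. For CASQ2 it was 0.709 and for MYBPC1 0.661. In PiNN, r was 0.964 for ATP2A2, 0.958 for TNNT1 (permutation p = 1e-05, adjusted p = 9e-05, rho 0.976 with p = 3e-05), 0.957 for MYL3, 0.886 for TPM3 and for MYL2, 0.876 for TNNI1, 0.851 for TNNC1, 0.788 for CASQ2 and 0.637 for MYBPC1. All 18 Pearson correlations had an adjusted permutation p under 0.05, the highest being 0.0482 for MYBPC1 in PiNN. By rank fewer passed, as Spearman's rho had an adjusted permutation p under 0.05 for 11 of the 18. Those that did not were MYL2, TNNC1, TNNI1 and TPM3 in PiNN (rho 0.636 to 0.685, adjusted p = 0.051 to 0.0658), CASQ2 in Duroc (rho 0.515, adjusted p = 0.141) and MYBPC1 in both breeds (rho 0.588 and 0.442, adjusted p = 0.0918 and 0.204).

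Leaving out the 2 animals farthest from the MYH7 median, Duroc 31 and 42 or PiNN 35 and 49, narrowed the range of MYH7 and left 8 animals. The exact permutation p over these 8 animals were not adjusted, unlike those over all animals of a breed. For ATP2A2 r was then 0.955 in Duroc and 0.810 in PiNN (exact permutation p = 0.000347 and 0.0183), and for TNNT1 0.741 and 0.977 (exact permutation p = 0.0352 and 0.000372). MYL2 and TNNI1 stayed under p = 0.05 in Duroc alone (both r 0.698) and MYL3 in PiNN alone (r 0.893). For TNNC1, TPM3 and CASQ2 r stayed positive, from 0.393 to 0.642, but missed the threshold in both breeds (exact permutation p = 0.0677 to 0.347). That of MYBPC1 with MYH7, at its brightest probe set, was 0.06 in Duroc and -0.09 in PiNN without those animals. With only PiNN 35 and 49 left out, the slopes of both MYBPC1 probe sets stayed positive (0.34 and 0.44) but were not called.

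All pairs of the 10 genes were then compared without regard to MYH7. In Duroc all 45 pairwise correlations were positive, with a median of 0.845 (0.50 to 0.986), and in PiNN all 45 were positive with a median of 0.876 (0.412 to 0.985). The closest single pair was TNNC1 and TPM3 in Duroc (0.986) and TNNC1 and TNNI1 in PiNN (0.985), and MYL2 was close to these thin filament genes, with 0.981 to TPM3 in Duroc and 0.982 to TNNC1 in PiNN. TNNT1 was further from them in Duroc, with 0.809 to TNNI1, 0.847 to TPM3 and 0.870 to TNNC1. CASQ2 and MYBPC1 were the loosest members, with medians over their 9 partners of 0.709 and 0.710 in Duroc and 0.734 and 0.552 in PiNN. Without PiNN 35 and 49 the median among the other 8 PiNN animals was 0.634, and 37 of the 45 correlations were positive.

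**Figure D4:**
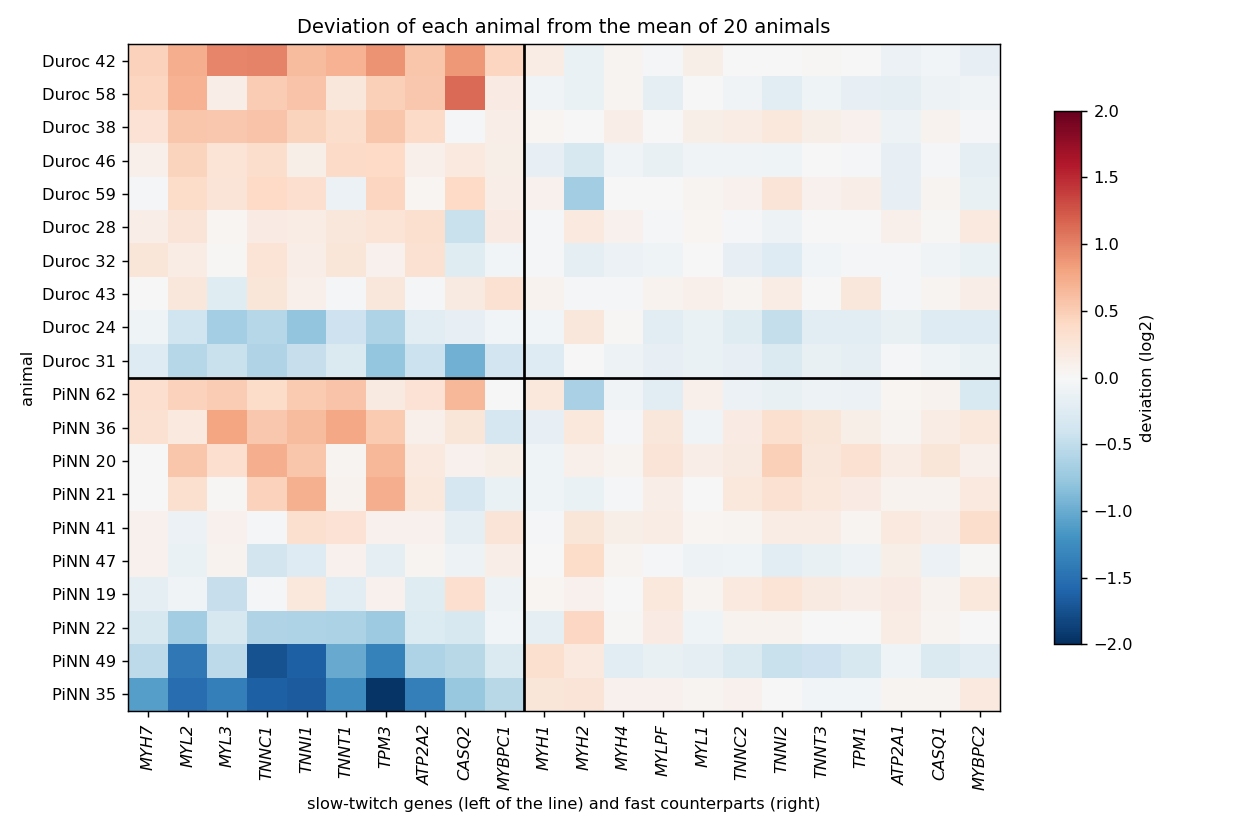
Deviation of each animal (rows, ordered within breed by their mean over the slow-twitch genes) from the mean of the 20 animals for the 10 slow-twitch genes and 12 fast counterparts (columns), in log2 units by colour. The slow-twitch columns are red together for Duroc 42 (mean deviation 0.72) and blue together for PiNN 35 (-1.32), but mixed in some rows such as PiNN 47. The fast columns are paler.

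Some animals were thus high or low in most or all of the 10 genes, while others were mixed, such as PiNN 47 with 5 genes above and 5 below their means. Duroc 42 was highest of its breed for 9 of the 10 genes, with a mean deviation of 0.72, and was above the mean of the 20 animals in all 10. Duroc 58 (0.49), PiNN 62 (0.39), Duroc 38 (0.38) and PiNN 36 (0.38) came next. Duroc 31 (-0.52) and Duroc 24 (-0.40) were the lowest of their breed, and PiNN 22 (-0.46) was the third lowest PiNN animal. All 10 genes were below their means in PiNN 22, 35 and 49 and in Duroc 24 and 31. The array background also went with this order in Duroc, with r = -0.825 (Spearman's rho -0.624) over 10 animals, and less so in PiNN (r = -0.416, rho -0.297). Duroc 24, 31 and 32 had the highest backgrounds of their breed (4.07, 4.10 and 4.05), and of these Duroc 32 was not low in the slow-twitch genes (0.12). Background and slow-twitch signal come from the same array, and beyond the fit with background as a covariate its part was not tested.

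The fast counterparts are the isoforms that take the same places in fast fibres, from the heavy chains MYH1, MYH2 and MYH4 to the pump ATP2A1 and the calcium store CASQ1. Read at the brightest probe set of each gene, they were steadier than the slow-twitch genes. Taken as 12 pairs of a slow isoform and its fast counterpart, the slow one had the larger SD in 11 pairs in Duroc and in 12 in PiNN. Median SDs were 0.44 and 0.64 for the slow genes and 0.11 and 0.17 for the fast ones in Duroc and PiNN. The brightest fast probe sets had mean signals of 10.47 to 13.57, with 11 of the 12 above 12, so that the same limit near the top of the scale applies. Some dimmer probe sets of these fast genes varied more. SDs in Duroc and PiNN were 0.60 and 0.44 for MYL1 at SNOWBALL_018148_st (mean 10.06). They were 0.40 and 0.34 for MYH4 at SNOWBALL_015002_s_st (mean 12.17), but 0.09 and 0.10 for MYL1 at SNOWBALL_018215_st (mean 13.02). The pair counts thus depend on the probe set taken.

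By breed, 10 of the 12 fast counterparts had lower means in Duroc and 0 passed the test with limma, while 2 had an unadjusted p under 0.05. These were ATP2A1, at 13.08 ± 0.09 in Duroc against 13.26 ± 0.08 in PiNN (both SD, n = 10) (difference -0.18, adjusted p = 0.111), and the regulatory light chain MYLPF (-0.16, adjusted p = 0.258). MYH2 differed by -0.22 (adjusted p = 0.398), TNNI2 by -0.16, MYBPC2 by -0.15, TNNC2 and CASQ1 by -0.09, TNNT3 by -0.06, MYH1 by -0.05 and TPM1 by -0.04. MYH4 (0.01) and MYL1 (0.01) were close to equal in the breeds. The median was -0.09.

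None of the 12 fast counterparts had a called slope on MYH7 at any of their probe sets. At the brightest ones the slopes ran from -0.24 (MYH2) to 0.20 (TNNI2). Slopes of MYH4 were 0.03 at its brightest probe set and -0.50, -0.49 and -0.28 at others with mean signals above 12. At these others the correlation with MYH7 was negative in both breeds, from -0.656 to -0.432. A dimmer MYH4 probe set (mean 6.47) had a slope of 0.88. Correlations of a slow with a fast gene had a median of 0.428 in Duroc and 0.265 in PiNN over 120 pairs, and of -0.0009 among the 8 PiNN animals without 35 and 49. MYH2, the heavy chain of fast oxidative fibres, was negatively correlated with all 10 slow-twitch genes in Duroc (median -0.386) and in PiNN (median -0.414), and with 9 of the 10 without PiNN 35 and 49 (median -0.530). ATP2A1 was negatively correlated with all 10 in Duroc (median -0.195) and positively with all 10 in PiNN (median 0.376). Without PiNN 35 and 49 it was positively correlated with 1 of the 10 (median -0.446). MYH1 was positively correlated with all 10 in Duroc (median 0.575) and negatively with all 10 in PiNN (median -0.519). That sign in PiNN rested on the same pair of animals, in which MYH1 was 0.25 and 0.33 above its PiNN median, since without them all 10 correlations were positive (median 0.310). These values are descriptions, as the probe sets share arrays and may share labelled fragments of related myosins.

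**Figure D5:**
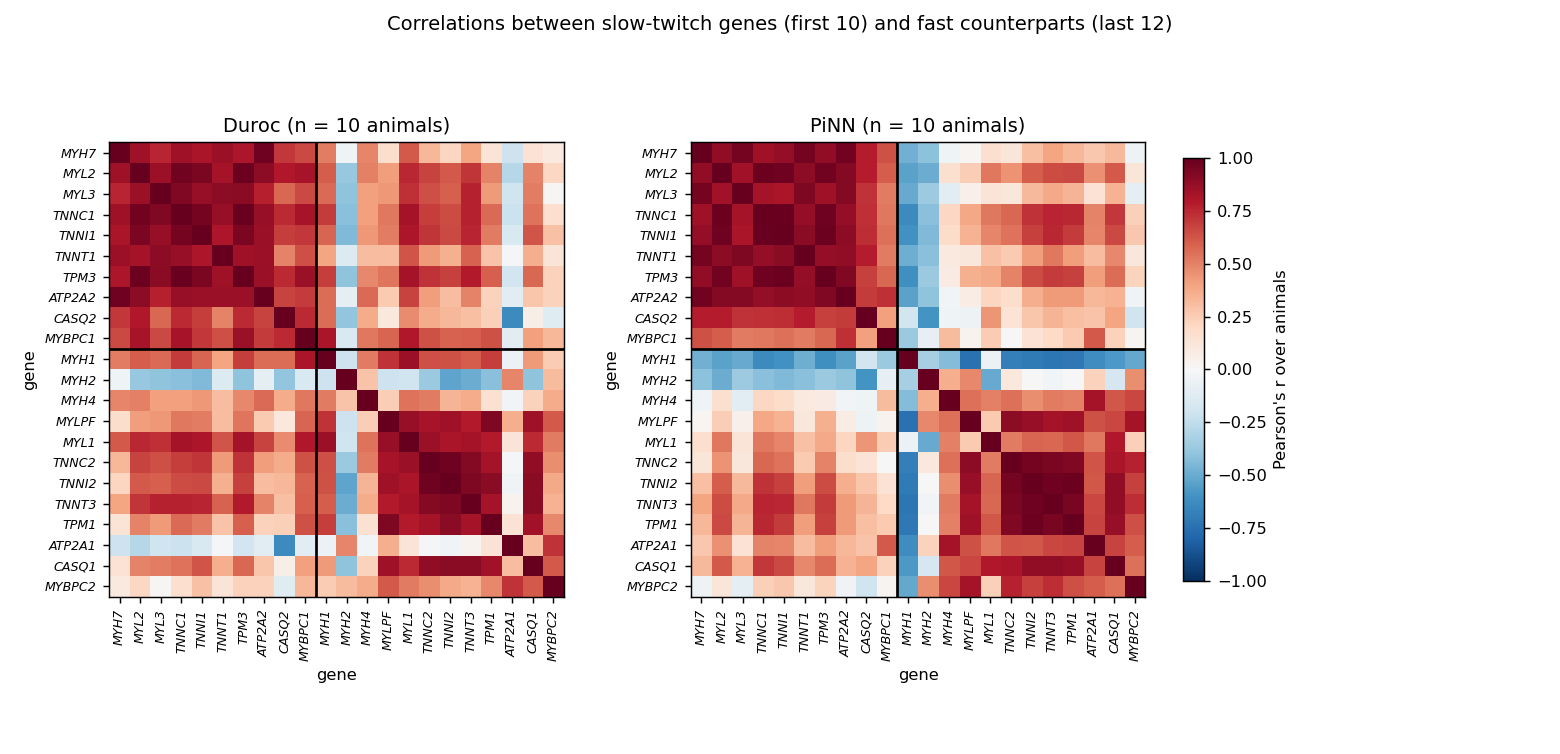
Pearson correlations over the 10 Duroc (left) and the 10 PiNN animals (right) between the 10 slow-twitch genes and 12 fast counterparts, by colour from -1 to 1. The upper left block of slow-twitch genes is red throughout in both breeds, and the row of MYH2 is blue against it in both.

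Other sarcomere proteins linked to slow fibres were taken from a list of 12 genes, of which 9 are named on the array. MYOZ2, a Z-disc protein that binds calcineurin, was the only one with a called slope on MYH7 (1.86, standard error 0.28, adjusted p = 0.00358). Its lowest PiNN signals were in PiNN 35 (6.79) and 49 (7.28), and without them the slope was 1.36 and did not pass (adjusted p = 0.778). Its signals were 9.17 ± 0.39 in Duroc against 8.63 ± 1.03 in PiNN (both SD, n = 10), and the difference of 0.54 did not pass (adjusted p = 0.397). None of the 9 passed the breed test.

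Among 6 measured regulators of the sarcoplasmic reticulum, only phospholamban (PLN), the inhibitor of the ATP2A2 pump, had a called slope on MYH7, of 1.39 (standard error 0.24, adjusted p = 0.0179). Without PiNN 35 (6.50) and 49 (7.59), its lowest PiNN values, the slope was 1.07 and did not pass (adjusted p = 0.881). PLN averaged 8.89 ± 0.49 in Duroc against 8.10 ± 0.71 in PiNN (both SD, n = 10), a difference of 0.79 that did not pass (adjusted p = 0.0664), and 9 of 10 Duroc animals were above the PiNN median. Sarcalumenin (SRL), a calcium-binding protein of the reticulum lumen, had the lower signal in Duroc (difference -0.31, adjusted p = 0.0266) and had a slope of 0.09 that did not pass (adjusted p = 0.826). It was the only one of the 6 called between the breeds, also without PiNN 35 and 49 (adjusted p = 0.0249).

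Of 18 measured genes of calcineurin, MEF2 and other regulators of the slow programme, 1 passed the breed test at its brightest probe set and 0 had a called slope. PPP3CA, a catalytic subunit of calcineurin, averaged 9.39 ± 0.56 in Duroc against 8.68 ± 0.26 in PiNN (both SD, n = 10), a difference of 0.71 (adjusted p = 0.0249), with a slope on MYH7 of 0.32 (adjusted p = 0.726). The transcription factor MEF2D did not pass at its brightest probe set (difference -0.24, adjusted p = 0.109), but its means were lower in Duroc at all 5 probe sets and 2 of them were called (-0.31 and -0.33, adjusted p = 0.0364 and 0.0307). Of 6 oxidative partners, the fatty acid transporter CD36 was called higher in Duroc at its brightest probe set, by 0.54 (adjusted p = 0.0409). Its other probe sets also had higher means in Duroc but were not called (adjusted p = 0.0738 or more). None of the 6 partners had a called slope. Other PPP3CA probe sets were called as well (0.43 and 0.74, adjusted p = 0.0103 and 0.0396 from limma), but a dimmer one was not (0.31, adjusted p = 0.162). Without PiNN 35 and 49 the differences of PPP3CA (0.66, adjusted p = 0.0568) and CD36 (0.45, adjusted p = 0.111) did not pass at their brightest probe sets. FABP3, the fatty acid binding protein of heart and slow muscle, had the smallest p for the slope (1.13, adjusted p = 0.144), which was 0.43 without these animals. Its breed difference was -0.25 with all animals (adjusted p = 0.629 from limma). Without PiNN 35 and 49 it was -0.55, lower in Duroc, and passed (adjusted p = 0.0479).

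Among markers of other cell types, some endothelial ones moved in the same direction as the slow-twitch genes without a call. None of the measured markers of adipocytes (6), endothelium (5), fibroblasts (5), leukocytes (3), smooth muscle (3) or red blood cells (3) had a called slope on MYH7. The smallest adjusted p among them was that of the endothelial receptor KDR, with a slope of 0.75 (adjusted p = 0.202) and correlations with MYH7 of 0.792 in Duroc and 0.693 in PiNN. KDR, CDH5 (slope 0.55) and TEK (slope 0.40) had an unadjusted p under 0.05, which makes 3 of the 5 endothelial markers beside 3.83% of all tested probe sets, and each had its lowest 2 PiNN values in PiNN 35 and 49. Without these animals their slopes were 0.45, 0.52 and 0.34, with unadjusted p of 0.119, 0.0615 and 0.219. The rest of the 5, PECAM1 and VWF, had slopes of -0.20 and 0.03 on MYH7 over all animals. The mean signal of the 5 markers ran from 6.59 (Duroc 31) to 7.28 (Duroc 42) in Duroc and from 6.55 (PiNN 35) to 7.14 (PiNN 20) in PiNN, and its part in the slow-twitch pattern was not tested. By breed, only ALAS2, an enzyme of haem synthesis in red blood cells, passed, with a higher signal in PiNN (difference -0.51, adjusted p = 0.0327, and 0.0798 without PiNN 35 and 49). Of the markers taken as specific to heart, 4 were measured and 0 passed either test, and the mean of NPPA (3.60) was below that of the background probe sets. At the brightest probe sets all 4 had lower means in Duroc. Of these, 3 had an unadjusted p under 0.05 from limma for the breed difference, beside 17.3% of all tested probe sets. A dimmer probe set of TNNI3 was higher in Duroc by 0.21 and was not called. The embryonic and atrial light chain MYL4, the only one of 5 developmental isoforms named on the array, differed by -0.10 between the breeds (adjusted p = 0.688).

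By the mean of its correlations with MYH7 in both breeds on Fisher's z scale, the gene outside the members most like MYH7 was PDLIM1, a PDZ and LIM domain protein of the actin cytoskeleton (0.903, over 10 animals in each breed). PTPRK, PRKG1, MLC2V, DKK2, PROX1, DDAH1, EPAS1, AKAP2 and PDP1 followed, from 0.842 to 0.791. Each of these genes was taken at its probe set most like MYH7, not at its brightest. For the members the measure was taken at the brightest probe set and ran from 0.649 (MYBPC1) to 0.969 (ATP2A2). PRKG1 is a kinase activated by cyclic GMP, PROX1 a homeobox transcription factor, EPAS1 an oxygen-regulated transcription factor and PDP1 the phosphatase that activates pyruvate dehydrogenase. Called slopes were found for PDLIM1 (2 probe sets), PRKG1, MLC2V, DKK2, PROX1 and EPAS1, and for MYOZ2, PLN and the LIM protein LMCD1 (1.02, adjusted p = 0.0152). PROX1 was closest to the threshold among these, with a slope of 0.75 (adjusted p = 0.0483). Without PiNN 35 and 49 none of these genes had a called slope, and that of PDLIM1 was 1.26 (adjusted p = 0.313). Of the 10 genes most like MYH7, PTPRK also passed the breed test at the probe set so chosen, with a higher signal in Duroc (0.52, adjusted p = 0.0486, and 0.132 without PiNN 35 and 49).

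MLC2V is listed by RefSeq as another name of MYL2. Its probe set SNOWBALL_023181_st ran from 7.69 over 8.64 to 9.37 in Duroc and from 6.84 over 8.44 to 9.17 in PiNN, and correlated with the MYL2 probe set at 0.852 in Duroc and 0.935 in PiNN. It was not counted as a member, as its symbol differs. The most opposite genes were KCNJ9 (-0.840), HYDIN (-0.815), SP1 (-0.792), BAIAP2L2 (-0.788) and PBD-2 (-0.782). Each was taken at its most opposite probe set, and none of them had a called slope. A negative slope was called for COL9A2 (-0.69, adjusted p = 0.0483) and a probe set without a symbol, both with mean signals below that of the background probe sets (3.58 and 3.79), where a change could not be measured well.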

How the data were processed

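Total RNA of longissimus muscle from 10 Duroc and 10 PiNN pigs, each a separate animal, was hybridized to 1 array per animal. The deposited values are log2 probe set signals as the authors obtained them after normalization. GCOS 1.1.1 stands in the submitters' processing notes. How probes were summarized and arrays normalized is not given in the sources used here. Array medians were 4.57 to 4.70, correlations between arrays 0.953 to 0.986, and no array was left out. Precision is limited by how many arrays there were. Of 47845 probe sets, 1923 were left out as controls, background or from other species. Gene symbols, from the platform annotation, were given for 26058 of the 45922 tested.

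The breed difference was tested two-sided by lmFit and eBayes of limma (3.58.1, under R 4.3.3) with no covariate, where the methods of the study name an ANOVA. Covariation was fitted with terms for breed and for the brightest MYH7 probe set centred within breed, leaving out the 2 MYH7 probe sets, and then with their interaction. Calls were made at an adjusted p under 0.05 (Benjamini-Hochberg, over every probe set in the fit). Correlations used 100000 permutations, or all permutations where 8 animals remained, and were adjusted over 18 relations. The brightest probe set stands for a gene, except among the genes most like or most opposite to MYH7. Each of those was taken at its probe set with the highest or lowest mean correlation. The limma fits were tested on simulated data. The noise there was drawn independently for each probe set and array, so effects shared across an array were not covered.

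Members and gene lists were chosen with earlier results of these data known, so no list was tested as a whole. Named were the members, the 12 fast counterparts, genes of other lists that passed a test or had the smallest p, and the 10 genes most like and 5 most opposite to MYH7. LMCD1, COL9A2, MEF2D, CDH5 and TEK were named after their values were seen. Alternatives were the ANOVA, unadjusted p-values, brighter probe sets, quantile normalization, array centring, a variance trend, array weights, array background as a covariate, animals with or without a methylation library, other reference genes, single breeds and leaving out animals. The fits without PiNN 35 and 49 together were chosen after seeing the data. No sequences or genome positions are given. Probe sets of related myosins, troponins and tropomyosins can share target sequence, which was not examined.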

Additional observations from a re-analysis of the deposited data

How the results depend on the processing

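No paired analysis was possible because the breeds share no animal number. No member probe set was called between the breeds under any of the 11 alternatives run for this count or in any of the 20 fits without 1 animal, while the number called over all probe sets ran from 389 (only animals with a methylation library) to 3135 (array weights) at an adjusted p, against 1917 with all animals. The median difference of the 10 genes kept its sign throughout, from 0.07 to 0.67, and from 0.14 to 0.34 without 1 animal. Single differences, none of them called, turned to higher in PiNN for TNNI1 (-0.0067 with array background as a covariate), for MYL3 (-0.017), TNNI1 (-0.14) and CASQ2 (-0.19) among the animals without a methylation library, and for MYL3 (-0.040) and TNNI1 (-0.14) without PiNN 35 and 49. Of the 310 alternative values of the single genes the other 304 kept direction and side of the threshold.

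The number of member probe sets with a called positive slope on MYH7 was 13 of 27 called in all. It was 9 to 13 without 1 animal (16 to 34 in all), 0 in Duroc alone, 4 in PiNN alone and 3 without PiNN 35 and 49. The fits of single breeds and without these animals hold fewer samples. With TNNI1 as the reference gene the number was 14 among 423 called in all and with MYL2 17 among 885, so that the members made up a smaller share of the calls. Of 250 alternative slopes of the 9 genes all were positive, 17 lost the call and 1, of CASQ2 with MYL2 as the reference, gained it. The interaction was called for 0 member probe sets in every fit run. Of the 18 correlations with MYH7, 10 were no longer past the threshold without the 2 outer animals, by unadjusted permutation p. Another, of MYBPC1 in PiNN, turned negative (-0.094). The median pairwise correlation of the members ran from 0.760 to 0.873 in Duroc and from 0.797 to 0.887 in PiNN without 1 animal, and was 0.634 without PiNN 35 and 49. The cause of these shifts was not tested.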
